A study of Mus musculus with 4 samples.

Results

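Txnip, Arrdc4, Mlxipl, Mlx, Acly, Fasn, Acaca and Pklr make up a set of 8 genes, of the 30905 genes in each matrix. They encode thioredoxin-interacting protein, a related alpha-arrestin, a carbohydrate-responsive transcription factor pair and the enzymes that carry glucose carbon into fatty acids. They were taken by symbol from the deposited gene lists, where each matched 1 gene. Their RNA was described in beta-, alpha-, delta- and endothelial-like cells of mouse pancreatic islets, in 4 single-cell libraries made with the 10x Genomics 3′ chemistry, 1 library for each group. The groups were normal control (98 days of age), early db/db (70 days), late db/db (98 days) and late db/db with intervention (98 days). All mice were male. The db/db mouse lacks a working leptin receptor, overeats and becomes hyperglycaemic, and the labels' protocol says that the db/db mice were kept until they were hyperglycaemic before they were allocated to groups. Every library, control included, carries the genotype label db/db(C57BL/KsJ), but C57BL/6 mice also appear in the growth protocol. If the control was C57BL/6, strain and disease cannot be told apart. Neither the nature of the intervention nor the number of mice behind a library is given in the labels, and early db/db also differs in age. The early db/db sample has a matrix whose name would fit a second control, so every early value rests on following the sample label.

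Glucose that enters a cell through its transporters is phosphorylated, and the sugar phosphates activate carbohydrate response element binding protein, encoded by Mlxipl, and its relative MondoA. Both bind DNA as a pair with Mlx, at paired E-box-like sites. Txnip and its paralog Arrdc4 are among the most glucose-responsive targets of these factors: TXNIP binds thioredoxin and lowers glucose uptake, and in beta cells it is known for its induction by high glucose and its link to cell death. Pklr (liver-type pyruvate kinase), Acly (ATP citrate lyase), Acaca (acetyl-CoA carboxylase) and Fasn (fatty acid synthase) are targets of the same factors in the liver.

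Bases before transcription starts are shown, because the set is defined by this response. The windows shown for Txnip and Pklr hold a paired site. Those shown for Arrdc4 and Mlxipl hold only a single E-box. The RefSeq start-site table for GRCm38.p6 held a start for all 8 genes, with 2 starts each for Mlxipl and Pklr. The 250 bases before each start were searched on both strands for the paired form CACGNGNNNNNCNCGNG, which is present in 92 of 32851 mouse windows of that length (0.280%), and for the single E-box CACGTG, which is present in 1978 (6.02%). Either search can overlap the other. Capitals mark the matches, and each sequence runs 5′ to 3′ on the strand of its gene. The paired form matched before the start of Txnip, where it begins 85 bases upstream, and before the downstream start of Pklr, where it begins 170 bases upstream. The single E-box matched before Arrdc4 (193 bases upstream), before the upstream start of Mlxipl (98 bases upstream) and before Mlx (40 bases upstream, not shown). The windows of Acly, Fasn, Acaca, the other start of Pklr and the other start of Mlxipl held neither set of letters.
Txnip, chr3:96557707-96557956, + strand: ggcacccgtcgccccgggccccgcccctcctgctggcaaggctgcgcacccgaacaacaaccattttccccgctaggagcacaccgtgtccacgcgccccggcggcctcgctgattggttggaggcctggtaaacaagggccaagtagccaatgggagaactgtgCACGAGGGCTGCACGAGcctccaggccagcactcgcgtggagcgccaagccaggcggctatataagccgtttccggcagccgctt
Arrdc4, chr7:68749239-68749488, − strand: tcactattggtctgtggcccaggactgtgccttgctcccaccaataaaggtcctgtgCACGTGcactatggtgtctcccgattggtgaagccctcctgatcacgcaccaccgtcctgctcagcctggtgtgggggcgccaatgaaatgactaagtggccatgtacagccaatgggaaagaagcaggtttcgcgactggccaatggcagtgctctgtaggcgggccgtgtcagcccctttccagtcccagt
Mlxipl, upstream start, chr5:135089640-135089889, + strand: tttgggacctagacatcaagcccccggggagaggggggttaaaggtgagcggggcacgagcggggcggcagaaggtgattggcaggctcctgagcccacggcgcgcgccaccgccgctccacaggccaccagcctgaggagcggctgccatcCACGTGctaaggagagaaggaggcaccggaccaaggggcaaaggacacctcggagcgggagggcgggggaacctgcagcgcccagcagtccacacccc
Pklr, downstream start, chr3:89136373-89136622, + strand: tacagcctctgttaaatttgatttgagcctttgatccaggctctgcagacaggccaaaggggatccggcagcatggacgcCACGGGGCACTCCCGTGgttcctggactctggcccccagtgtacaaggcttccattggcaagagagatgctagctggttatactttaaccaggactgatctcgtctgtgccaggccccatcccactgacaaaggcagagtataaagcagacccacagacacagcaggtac

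After filtering, 4458 control, 4616 early, 5983 late and 4906 intervention cells were kept. Classes were cut from the share of a cell's UMIs (unique molecular identifiers, each marking 1 captured RNA) given to hormones: insulin of at least 20% for beta-like cells, and glucagon or somatostatin of at least 5% for alpha- and delta-like cells. Endothelial-like cells had a UMI of at least 4 of 10 endothelial markers, no hormone above its threshold and no Ptprc. Each endocrine class also had to lie under the thresholds of the other hormones. The hormones Ppy and Pyy together were under 5% in beta-like cells and below the class's own hormone in alpha- and delta-like cells. These are ranges of a per-cell share and not clusters. The median Ppy and Pyy share of alpha-like cells was 0.820% in control, 8.09% in early, 8.11% in late and 5.68% in the intervention. The part of this in alpha-like values was not tested. Beta-like cells numbered 2317, 1526, 744 and 3230 in control, early, late and intervention, with 6, 51, 41 and 145 of them within 5 percentage points above the insulin threshold. The other classes held between 95 and 1052 cells per library. All 10 beta cell markers reached 50 CPM (UMIs of a gene scaled to a common total, defined below) in the control and intervention beta-like cells and 7 of 10 in the early and late ones, and all 10 endothelial markers did so in the endothelial-like cells of every library. In beta-like cells the beta markers other than Iapp summed to 9044 CPM in control, 1815 in early, 1726 in late and 3584 in the intervention. The alpha markers summed to 4702, 16427, 15006 and 23008 CPM in the same cells and order. The part of these differences in the values below was not tested. Median UMIs per beta-like cell ran from 41881 to 88707.5, and pairs of libraries shared 3 to 11 barcodes among kept cells. The estimated share of UMIs from free RNA was highest in the intervention library, where it was 3.58% in beta-like and 11.2% in endothelial-like cells. The summed acinar marker level was highest in early db/db, at 1405 CPM in beta-like and 10657 CPM in endothelial-like cells against 110 and 154 CPM in control, and its part in any value below was not tested.

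CPM, the level used throughout, divides by all UMIs other than mitochondrial genes and 7 hormone genes, summed over the cells of a class in a library. With 1 library per group there is no replicate and no test was run. The 95% intervals are exact and cover counting error only, so they say nothing of the spread between mice.

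Txnip was higher in the beta-like cells of all 3 db/db libraries than in control, and highest in the intervention. Its level was 413 CPM (406 to 420) in control, 868 CPM (858 to 879) in early db/db, 734 CPM (724 to 744) in late db/db and 1505 CPM (1494 to 1516) in the intervention. None of the 4 intervals overlapped. Early db/db stood 1.07 log2 units above control (interval 1.04 to 1.10) and late db/db 0.83 above it (0.80 to 0.86), which is 1.78-fold. The intervention stood 1.04 log2 units above late db/db (1.01 to 1.06) and 1.87 above control (1.84 to 1.89), or 3.64-fold. The late library was thus below the early one by a small margin, with a log2 ratio of -0.24 (-0.27 to -0.22).

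The same order was seen cell by cell. The median Txnip level per beta-like cell was 246 CPM in control, 745 CPM in early db/db, 654 CPM in late db/db and 1499 CPM in the intervention. The quartiles were 94.1 and 484 CPM in control and 934 and 2158 CPM in the intervention. The tails of the distributions overlapped: the 5th and 95th percentiles were 0 and 1349 CPM in control and 247 and 3191 CPM in the intervention. After each cell was thinned to 3000 UMIs outside hormone and mitochondrial genes, 56.1% of control, 83.0% of early, 78.4% of late and 93.6% of intervention beta-like cells held a Txnip UMI (85.6%, 93.6%, 97.3% and 98.6% unthinned). The thinning left out 112, 140, 26 and 242 shallower cells in the same order.

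**Figure D1:**
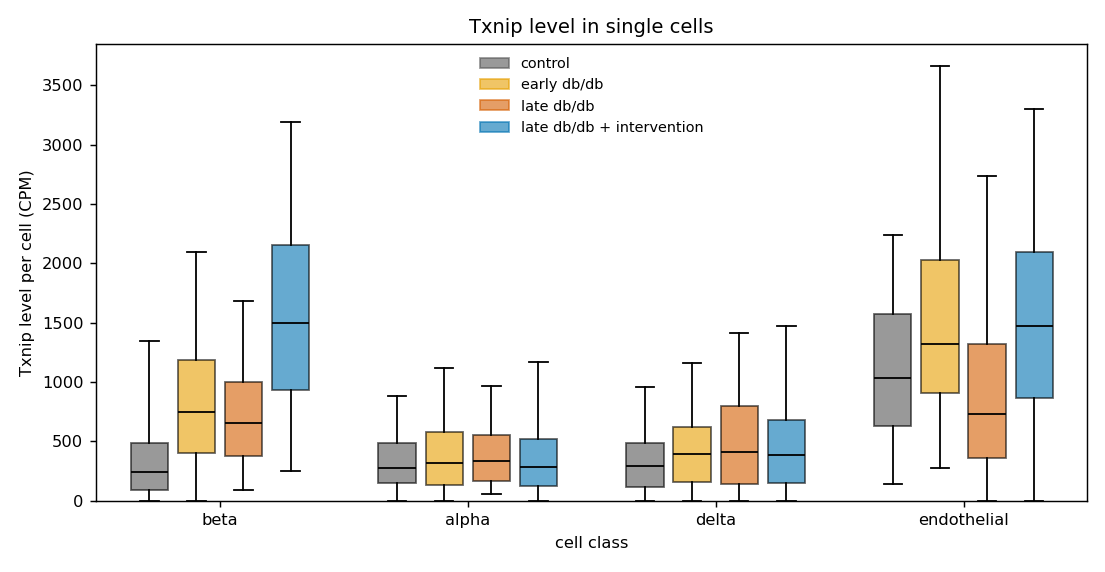
Txnip level per cell in CPM (vertical axis) by cell class (horizontal axis) and library (colour). Boxes span the quartiles of the cells with a line at the median and whiskers reach the 5th and 95th percentiles; the beta-like medians run from 246 CPM in control to 1499 CPM in the intervention, while those of alpha-like cells lie between 276 and 338 CPM.

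Arrdc4, an alpha-arrestin like Txnip, was also higher in every db/db library than in control. Beta-like cells held 15.5 CPM (14.2 to 16.9) in control, 61.5 CPM (58.7 to 64.4) in early db/db, 61.0 CPM (58.1 to 64.1) in late db/db and 78.5 CPM (76.0 to 81.1) in the intervention. The control was the lowest by a wide margin, the early and late values could not be separated by counting error, and the intervention was the highest. Late db/db was 3.94-fold above control (log2 ratio 1.98, 1.83 to 2.13) and the intervention 5.07-fold (2.34, 2.21 to 2.48). The intervention lay 0.36 log2 units above late db/db (0.28 to 0.45), less than the 1.04 of Txnip. Thinned, 4.90% of control, 15.5% of early, 15.9% of late and 20.9% of intervention cells held an Arrdc4 UMI (17.5%, 59.9%, 73.5% and 58.8% unthinned).

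Mlxipl, the gene of the glucose-sensing factor itself, ran the other way against control. Its level in beta-like cells was 298 CPM (292 to 304) in control, 92.2 CPM (88.8 to 95.8) in early db/db, 101 CPM (97.6 to 105) in late db/db and 162 CPM (158 to 165) in the intervention. Control was highest, early and late db/db were lowest, and the intervention lay between them. Against control, early db/db had a log2 ratio of -1.69 (-1.75 to -1.63), late db/db of -1.55 (-1.62 to -1.49) and the intervention of -0.88 (-0.92 to -0.84). The intervention was 0.67 log2 units above late db/db (0.61 to 0.74). Mlxipl was thus lower than control in every db/db library, while Txnip and Arrdc4 were higher than control. In the intervention against late db/db, Mlxipl, Txnip and Arrdc4 were all higher. Reads from a 3′ kit lie near the end of the transcript, so UMIs from the 2 Mlxipl starts cannot be told apart. Thinned, 59.8% of control, 23.2% of early, 26.2% of late and 38.5% of intervention beta-like cells held a Mlxipl UMI (91.9%, 71.0%, 88.7% and 81.3% unthinned). In endothelial-like cells, which gave almost no Mlxipl, the thinned share was between 0 and 1.09%, at median depths of 3954.5 to 8355 UMIs against 41881 to 88707.5 in beta-like cells.

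Mlx, the DNA-binding partner, was nearly level with this denominator. Beta-like cells held 57.3 CPM in control, 58.0 CPM in early db/db, 57.8 CPM in late db/db and 49.3 CPM in the intervention, with intervals from 54.7 to 60.8 CPM at the widest in the first 3 and 47.3 to 51.3 CPM in the intervention. The intervals of control, early and late overlapped, and the intervention lay below them, with a log2 ratio to late db/db of -0.23 (-0.32 to -0.14).

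Acly, which makes cytosolic acetyl-CoA from citrate, was lower in every db/db library. Its level in beta-like cells was 1035 CPM (1024 to 1046) in control, 541 CPM (533 to 550) in early db/db, 511 CPM (503 to 520) in late db/db and 445 CPM (439 to 451) in the intervention. Unlike Mlxipl, it was lowest in the intervention. Set against control, its log2 ratio in early db/db was -0.94 (-0.96 to -0.91), followed by late db/db with -1.02 (-1.05 to -0.99) and the intervention with -1.22 (-1.24 to -1.19).

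Fasn, Acaca and Pklr did not reach 50 CPM in any library of beta-like cells and so entered no comparison there. Fasn, which builds palmitate, held 46.2 CPM in control, 20.9 CPM in early db/db, 20.1 CPM in late db/db and 27.2 CPM in the intervention. Its log2 ratio of late db/db to control was -1.20 (-1.35 to -1.05), and that of the intervention to late db/db was 0.44 (0.29 to 0.59). Acaca, which makes malonyl-CoA, differed little: 26.1 CPM in control, 21.0 CPM in early db/db, 21.6 CPM in late db/db and 23.5 CPM in the intervention. Pklr was near the bottom of the range, at 5.80 CPM, 4.84 CPM, 5.51 CPM and 4.94 CPM in the same order. All 4 Pklr intervals overlapped, so no difference was detectable at this depth, although its downstream start carries 1 of the 2 paired sites shown above.

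**Figure D2:**
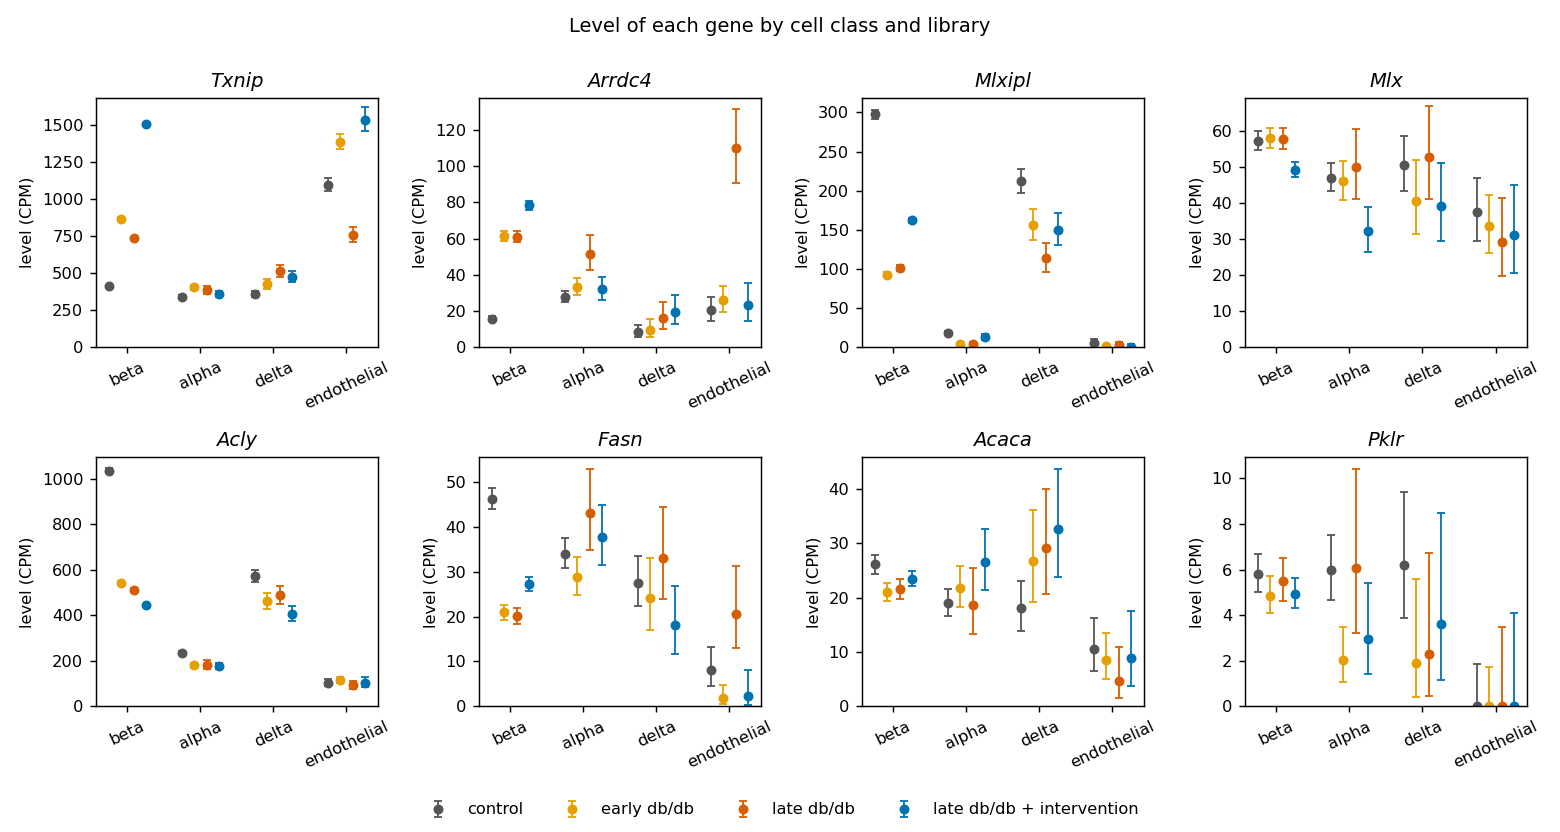
Level of each of the 8 genes in CPM (vertical axes, linear from 0, a separate scale for each gene) in 4 cell classes (horizontal axes), 1 point per library with its exact 95% counting interval. In beta-like cells Txnip and Arrdc4 are lowest in control, Mlxipl and Acly are highest in control, and Mlx lies between 49.3 and 58.0 CPM.

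Read as a set, 5 of the 8 genes were high enough in beta-like cells to be counted (a minimum of 50 CPM in whichever library was higher, and of 50 UMIs summed over both), of which Arrdc4 entered each comparison only through its level in db/db. Against control, late db/db differed at least 2-fold in 3 of the 5 genes, with Arrdc4 higher and Mlxipl and Acly lower, while 15.6% of the 4167 genes that entered were 2-fold apart (4.42% higher, 11.1% lower). Early db/db against control also gave 3 of 5, with Txnip and Arrdc4 higher and Mlxipl lower, over a background of 21.8% (5.31% higher, 16.5% lower). The intervention against control gave 3 of 5, with Txnip and Arrdc4 higher and Acly lower, over 11.8% (4.09% higher, 7.71% lower). The intervention against late db/db gave 1 of 5, Txnip, over 1.34% (0.844% higher, 0.495% lower). Late against early db/db gave 0 of 5, over 0.989%. These comparisons share libraries and are not independent of each other.

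The denominator matters for genes near the 2-fold line. The median log2 ratio of all genes that entered was -0.29 in late db/db against control, -0.24 in early db/db against control, -0.33 in the intervention against control, and -0.01 in the intervention against late db/db. With all UMIs as denominator, insulin included, those medians became 0.31, 0.17, 0.08 and -0.20, and with TMM factors 0.03, 0.11, -0.06 and -0.05. Insulin took 64.7% of the UMIs of control beta-like cells against 43.5% to 48.7% in the db/db libraries. Relative to the median gene, late db/db against control was 1.12 log2 units for Txnip, 2.27 for Arrdc4, -1.27 for Mlxipl and -0.73 for Acly. The directions of these 4 genes in the 3 comparisons with control were the same under all 3 denominators. Their size was not: with all UMIs, late db/db against control was 1.43 for Txnip, -0.95 for Mlxipl and -0.42 for Acly. Mlx turned sides in the intervention against control, with -0.22, 0.20 with all UMIs and 0.06 with TMM factors. In late db/db against control Mlx was 0.01, 0.61 with all UMIs and 0.33 with TMM factors. The balance of genes counted as higher and lower also turned with the denominator. In late db/db against control, 184 were higher and 464 lower of the 4167 that entered. With all UMIs 349 were higher and 40 lower of 1409, and with TMM factors 169 were higher and 65 lower of 1332. Fewer genes reached 50 CPM with these denominators, so each count is to be read against the number that entered.

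**Figure D3:**
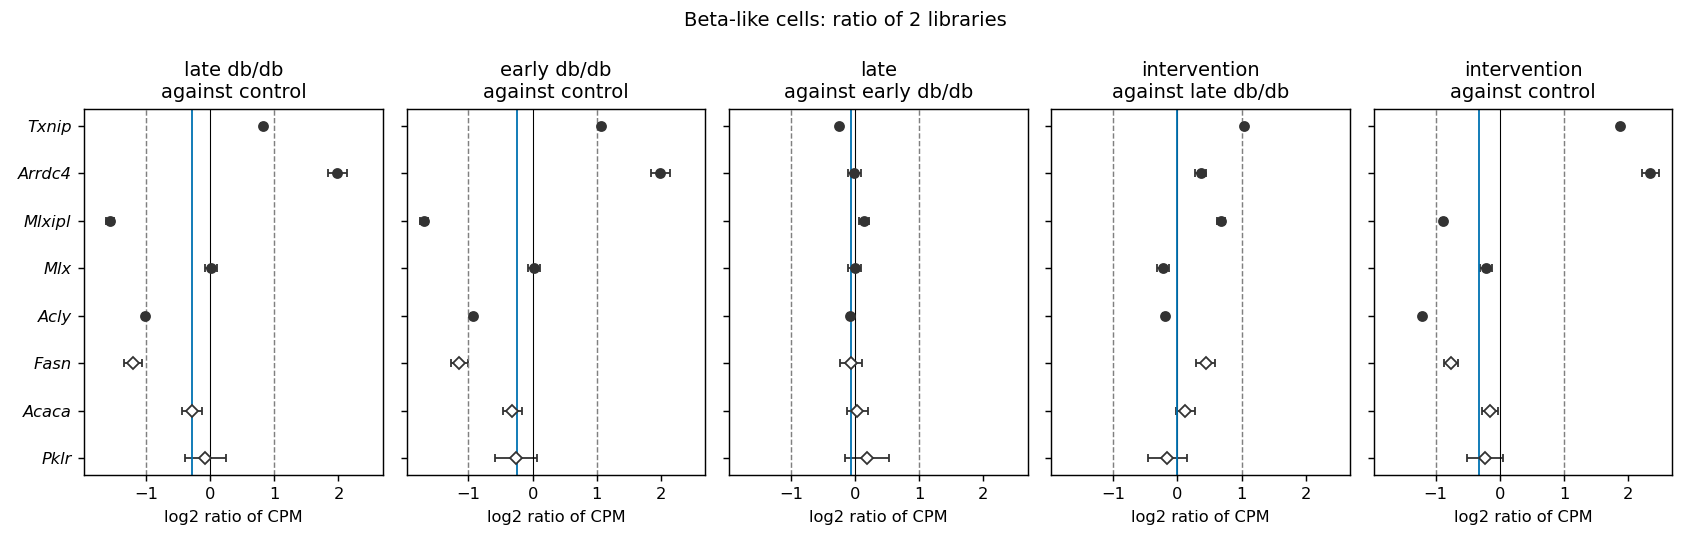
Log2 ratio of CPM in beta-like cells (horizontal axes) for the 8 genes (vertical axis) in 5 comparisons of 2 libraries each. Filled circles entered the comparison and open diamonds did not, bars are exact 95% counting intervals, dashed lines mark 2-fold and the blue line is the median of all genes that entered; Arrdc4 lies near 2 against control and Txnip at 1.04 in the intervention against late db/db.

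Txnip differed less between libraries in alpha- and delta-like cells than in beta-like cells. In alpha-like cells Txnip held 340 CPM (330 to 351) in control, 403 CPM (388 to 419) in early db/db, 387 CPM (361 to 414) in late db/db and 358 CPM (338 to 379) in the intervention. Neighbouring values in that order of levels had overlapping intervals, and the intervention, highest in beta-like cells, was next to control. In delta-like cells Txnip held 355 CPM in control, 423 CPM in early db/db, 474 CPM in the intervention and 513 CPM in late db/db. The log2 ratio of late db/db to control was 0.18 (0.07 to 0.29) in alpha-like and 0.53 (0.39 to 0.67) in delta-like cells, against 0.83 in beta-like cells. The log2 ratio of the intervention to late db/db was -0.11 in both classes, with intervals of -0.24 to 0.02 in alpha-like and -0.27 to 0.04 in delta-like cells that exclude the 1.04 of beta-like cells.

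Arrdc4 in alpha-like cells was 27.8 CPM in control, 33.1 CPM in early db/db, 51.5 CPM in late db/db (110 UMIs) and 31.9 CPM in the intervention. The late library stood above the other 3, with a log2 ratio to control of 0.89 (0.56 to 1.20). Delta-like cells held little of it, from 8.48 CPM in control to 19.6 CPM in the intervention, on 15 to 30 UMIs a library. Mlxipl was well represented in delta-like cells, with 212 CPM in control, 156 CPM in early db/db, 113 CPM in late db/db and 149 CPM in the intervention. Control was highest there too, late db/db was lowest, and the early and intervention intervals overlapped. The log2 ratio of late db/db to control was -0.90 (-1.17 to -0.65). Alpha-like cells held 18.2 CPM of Mlxipl in control and 3.45, 3.28 and 12.7 CPM in early, late and intervention, all under the level needed to enter. On 223 UMIs in control and 7 in late db/db its log2 ratio there was -2.47 (-3.81 to -1.41), and in early db/db, on 22 UMIs, it was -2.40 (-3.10 to -1.76), so the low alpha-like level of Mlxipl was more than 2-fold lower still in both. Acly was 235 CPM in control alpha-like cells against 176 to 184 CPM in the db/db libraries, and 574 CPM in control delta-like cells against 407 to 489 CPM. Fasn in alpha-like cells was 43.1 CPM in late db/db and 34.0 CPM in control, with overlapping intervals. Among the genes of the set that entered, none was 2-fold apart in any comparison of these classes. In alpha-like cells that was 0 of 4 in late db/db against control, where 2.41% of all genes were, 0 of 2 in early db/db against control (4.33%), 0 of 4 in late against early db/db (1.42%), 0 of 4 in the intervention against late db/db (1.7%) and 0 of 2 in the intervention against control (2.34%). In delta-like cells it was 0 of 4 in each, over 2.77%, 3.86%, 1.39%, 1.71% and 2.12% in the same order.

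Because the classes came from the same libraries, they can be set beside each other within one. In control, Txnip of alpha-like cells was close to that of beta-like cells, with a log2 ratio of -0.28 (-0.33 to -0.23). In early db/db it was -1.11 (-1.17 to -1.05), in late db/db -0.92 (-1.03 to -0.82) and in the intervention -2.07 (-2.15 to -1.99). Txnip of delta-like cells to beta-like cells went from -0.22 in control to -1.67 in the intervention. The gap between the endocrine classes was therefore widest in the intervention library. For Arrdc4, alpha-like cells were above beta-like cells in control, at 0.85 (0.64 to 1.05), and below them in early db/db, at -0.89 (-1.11 to -0.69), and in the intervention, at -1.30 (-1.59 to -1.02). In late db/db the classes were not separated, at -0.25 (-0.54 to 0.03).

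Endothelial cells, which take up glucose without insulin, carried high Txnip in every library. The endothelial-like class held 1098 CPM (1052 to 1145) in control, 1389 CPM (1339 to 1440) in early db/db, 758 CPM (707 to 812) in late db/db and 1538 CPM (1458 to 1622) in the intervention. None of the intervals overlapped, and late db/db was the lowest, below control by a log2 ratio of -0.53 (-0.65 to -0.42). The intervention was 1.02 log2 units above late db/db (0.89 to 1.15) and 0.49 above control (0.39 to 0.58). In control, endothelial-like cells were 1.41 log2 units above beta-like cells of the same library (1.34 to 1.48), while in the intervention the difference was 0.03 (-0.05 to 0.11).

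The makeup of that class was not the same in the 4 libraries. A UMI of a lymphatic or high endothelial venule marker (Lyve1, Prox1, Madcam1, Glycam1 or Chst4) was present in 42 of 108 late db/db cells, against 6 of 201 in control, 29 of 422 in early db/db and 12 of 214 in the intervention. Glycam1, a ligand made by high endothelial venules of lymph nodes, reached 31768 CPM in late db/db and had 0 UMIs in the other 3 libraries. Esm1, a marker of islet capillaries, was present in 191 of 201 control cells, 209 of 422 early, 45 of 108 late and 149 of 214 intervention cells. Without the marked cells, Txnip was 1117 CPM in control, 1432 CPM in early db/db, 1020 CPM in late db/db and 1517 CPM in the intervention. The log2 ratio of late db/db to control was then -0.13 (-0.28 to 0.02), and that of the intervention to late db/db 0.57 (0.42 to 0.73). In cells with an Esm1 UMI these ratios were -0.17 (-0.35 to 0.00) and 0.67 (0.49 to 0.86). Outside the marked cells, Txnip of late db/db thus lay within counting error of control, while the intervention stayed above late db/db in both subsets, under 2-fold.

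Arrdc4 showed the same dependence. It was 20.2 CPM in control, 25.9 CPM in early db/db, 110 CPM in late db/db and 23.3 CPM in the intervention over all endothelial-like cells, on 40, 55, 117 and 21 UMIs. The late library stood apart, with a log2 ratio to control of 2.44, with a lower bound of 1.91. Arrdc4 was 156 CPM in the marked late cells and 41.7 CPM in the others, and without marked cells in any library the ratio was 1.09 (0.19 to 1.94). In cells with an Esm1 UMI it was 0.55 (-0.69 to 1.63), on 9 UMIs in late db/db and 37 in control. Among endothelial-like cells, 1 of the 3 genes that entered was 2-fold apart in late db/db against control, Arrdc4, over a background of 14.8% (8.24% higher). In this class Arrdc4 entered comparisons only through its level in late db/db. Late against early db/db also gave 1 of 3, Arrdc4, over 11.8% (6.72% higher). The intervention against late db/db gave 2 of 3, Txnip higher and Arrdc4 lower, over 13.3% (5.51% higher, 7.78% lower). The Txnip ratio of that comparison came under 2-fold in 4 of 8 processing alternatives: all UMIs (0.93), TMM factors (0.99), no doublet removal and the mean over cells. Early db/db and the intervention against control gave 0 of 2 each, over 8.6% and 6.94%. Acly was level there, between 93 and 115 CPM, Mlx held 29.1 to 37.4 CPM, and Mlxipl had 11, 1, 2 and 0 UMIs. Pklr had 0 UMIs in the endothelial-like cells of all 4 libraries, which allows up to 1.42 to 3.33 CPM (3 UMIs of each library's sum).

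**Figure D4:**
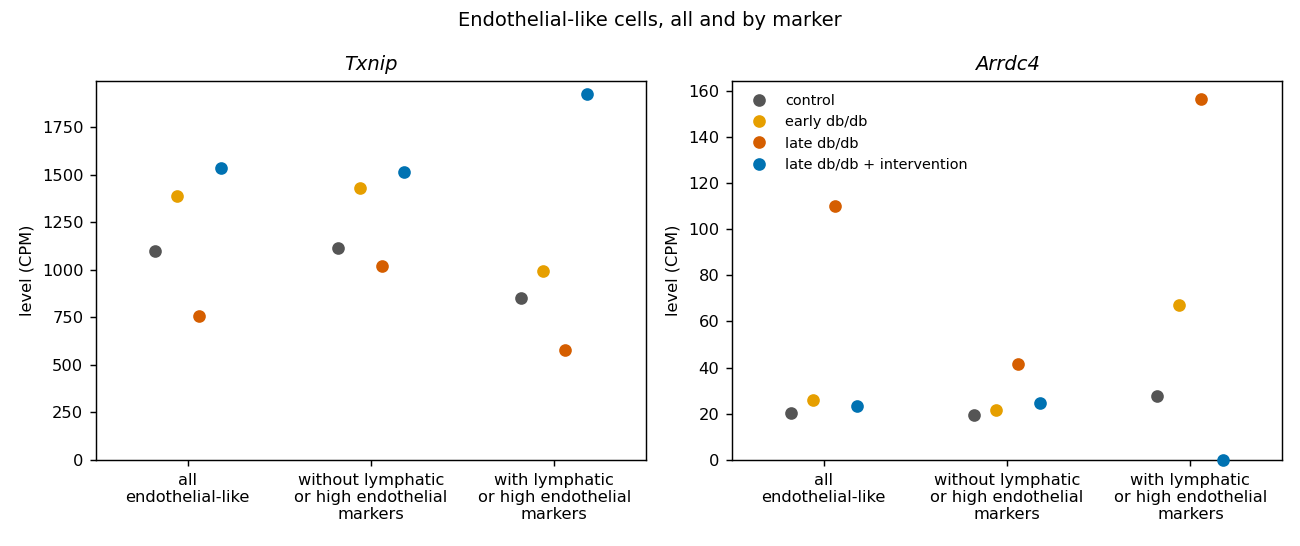
Txnip and Arrdc4 levels in CPM (vertical axes) in all endothelial-like cells, in those without and in those with a UMI of a lymphatic or high endothelial venule marker (horizontal axes), 1 point per library. The late db/db library is lowest for Txnip over all cells (758 CPM) and reaches 1020 CPM without the marked cells; its Arrdc4 goes from 110 to 41.7 CPM. The marked group holds 6 control and 12 intervention cells.

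Within a library, beta-like cells differ in Txnip, and the other genes can be read across that range. Cells of each library were split by their Txnip CPM into 4 groups of equal size, and the summed levels of the lowest and highest group were set side by side as a description. Txnip went from 38.3 to 1037 CPM between these groups in control and from 536 to 2751 CPM in the intervention, which is how they were chosen. Arrdc4 was higher in the high-Txnip group of every library: 8.76 against 26.8 CPM in control, 41.6 against 78.2 CPM in early db/db, 44.9 against 78.6 CPM in late db/db, and 52.5 against 108 CPM in the intervention. Acly was higher in the high-Txnip group of the 3 db/db libraries, with 387 against 715 CPM in early db/db, 451 against 633 CPM in late db/db and 347 against 581 CPM in the intervention. In control Acly was 1050 against 1013 CPM. So Acly was lower in the db/db libraries as wholes, yet higher in their high-Txnip cells. Mlxipl was 316 against 287 CPM in control and 140 against 197 CPM in the intervention. In early and late db/db it lay between 99.7 and 105 CPM in both groups. Mlx was 50.6 against 44.7 CPM in the intervention and between 55.1 and 58.0 CPM in both groups of the other libraries. Pklr, low throughout, was 6.28 against 5.49 CPM in control and 1.75 against 6.88 CPM in early db/db. It was 4.26 against 7.60 CPM in late db/db and 3.46 against 7.41 CPM in the intervention. Acaca was also lower in the high-Txnip group of control and higher in those of the db/db libraries. Fasn was higher in the high-Txnip group of the intervention only, at 23.8 against 34.8 CPM. Arrdc4 in the low-Txnip group of each db/db library was still above its level in the high-Txnip group of control.

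These groups also differed in other respects. The median insulin share of a cell's UMIs was 62.3% in the lowest and 65.9% in the highest group in control, and 42.3% and 50.9% in the intervention. Median UMIs were 44304 and 52426 in control and 41848 and 37303 in the intervention. The median mitochondrial share was 4.37% in the lowest and 2.58% in the highest group in control, and 3.23% and 3.24% in the intervention. The part of insulin share, depth and mitochondrial share in these differences was not tested.

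**Figure D5:**
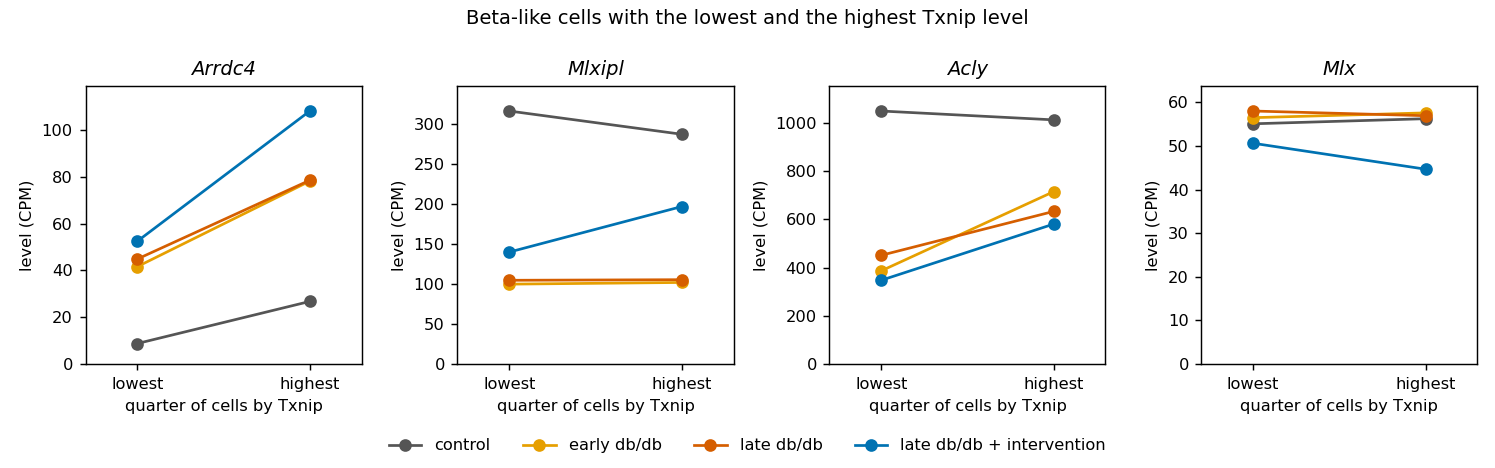
Summed level in CPM (vertical axes, linear from 0) of Arrdc4, Mlxipl, Acly and Mlx in the beta-like cells with the lowest and with the highest Txnip, out of 4 groups of equal size, (horizontal axes), 1 line per library. Arrdc4 is higher on the right in all 4 libraries, and Acly in the 3 db/db libraries.

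Related genes were taken from 6 lists, given here for beta-like cells. In late db/db against control, 4.42% of all genes that entered were 2-fold higher and 11.1% lower, with a median of -0.29, and the counts below are to be read against these shares. Of 6 alpha-arrestins, Txnip and Arrdc4 were the 2 that entered, so no other member of the family could be compared. Of 15 genes of the thioredoxin system, the target of TXNIP, 14 entered in late db/db against control, 0 were 2-fold higher and 1 lower, with a median of 0.01 against -0.29 for all genes. That gene was Glrx (glutaredoxin), at 34.6 CPM in late db/db and 76.5 CPM in control, through which alone it entered. Txn1 (thioredoxin) was 247 CPM in control, 346 CPM in early db/db, 334 CPM in late db/db and 291 CPM in the intervention. Txnrd1 (thioredoxin reductase), at 102 CPM in control, was 80.0 CPM in late db/db and 69.4 CPM in the intervention, and Glrx3 was 117 and 153 CPM in control and late db/db. Apart from Glrx in late db/db, no gene of this list was 2-fold apart in any of the 5 comparisons.

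Of 13 genes of the Mlx and Max network, 5 entered in late db/db against control, with 0 higher and 1 lower, Mlxipl. The median was -0.61. Mga, a Max-binding repressor, was 120 CPM in control and 57.0 CPM in early, 67.9 CPM in late and 73.8 CPM in the intervention, and Max, the shared partner of that network, lay between 49.6 and 83.9 CPM. Of 25 carbohydrate response targets, 8 entered, with 1 higher (Arrdc4) and 3 lower (Acly, Khk and G6pc2), and a median of -0.62 against -0.29 for all genes. Arrdc4 entered only through its level in late db/db, and Khk only through control. G6pc2, which encodes the islet glucose-6-phosphatase, held 1619 CPM in control, 606 CPM in early db/db, 387 CPM in late db/db and 1075 CPM in the intervention. It was 1.48 log2 units above late db/db in the intervention (1.44 to 1.51). In that comparison 7 targets entered and 2 were 2-fold higher, G6pc2 and Txnip, where 0.844% of all genes were. Txnip came under 2-fold there with all UMIs and with TMM factors. Khk, the fructose-phosphorylating ketohexokinase, was 54.2 CPM in control and 16.4 to 18.9 CPM in the db/db libraries. The targets thus did not share a direction. Of the 8 that entered, Txnip, Arrdc4 and Rgs16 were above control in late db/db. The 5 enzymes (Acly, Khk, G6pc2, Scd2 and Tkt) were below it, by -0.30 for Tkt to -2.07 for G6pc2. Tkt thus lay near the median of all genes, -0.29.

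Of 20 genes of fatty acid synthesis, 9 entered in late db/db against control, with 0 higher and 3 lower, and a median of -0.82 against -0.29 for all genes. The 3 were Acly, Srebf1 (the lipogenic transcription factor SREBP-1) and Elovl5 (a fatty acid elongase). Srebf1 was 68.2 CPM in control and 20.1, 24.7 and 29.9 CPM in early, late and intervention. Elovl5 was 83.1 CPM in control and 29.5, 31.7 and 33.9 CPM in the same order. Both entered only through their level in control. Mid1ip1, which activates acetyl-CoA carboxylase, went against the list: 53.1 CPM in control, 69.8 CPM in early db/db, 83.0 CPM in late db/db and 101 CPM in the intervention. Insig2 (a brake on SREBP processing) lay between 71.6 and 84.9 CPM. Of 19 glycolysis genes, 10 entered, with 0 higher and 1 lower, Pfkl (liver-type phosphofructokinase), at 57.3 CPM in control and 20.2 to 26.1 CPM in the db/db libraries; the list's median was -0.08. Pfkl entered only through control, and 1 of 10 lower is near the 11.1% of all genes. Gpi1 and Pgk1, a glycolytic isomerase and kinase, were 0.58 and 0.52 log2 units above control in late db/db.

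The genes most like Txnip over the 16 class-by-library levels were Map1lc3b (r = 0.92), Inpp4b (0.91), Rnf215 (0.91), Tmem14c (0.90) and Golm1 (0.90), among 6411 genes, by the correlation of log2(CPM + 1). Map1lc3b, which encodes the autophagosome protein LC3B, was 272 CPM in control beta-like cells, 379 CPM in early, 318 CPM in late and 394 CPM in the intervention, and 281 CPM in late db/db endothelial-like cells against 439 to 519 CPM in the other 3 libraries. For Arrdc4, genes among the closest were C1qtnf1 (0.72), Rplp0 (0.72), Eef2 (0.72) and Gramd1a (0.71). C1qtnf1, a secreted C1q-like protein, was 0.57 CPM in control beta-like cells and 76.1 to 87.6 CPM in the db/db libraries. Txnip and Arrdc4 correlated with each other at 0.37, and Txnip with Mlxipl at -0.35. The 16 values share 4 libraries and 4 classes, so these correlations describe the pattern and carry no p.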

How the data were processed

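Single-cell RNA of islet cells was measured in 4 libraries, 1 per group. The deposited matrices hold whole-number UMI counts of 30905 genes per barcode, with no normalization, written by Cell Ranger software version 3.0.0 per the file headers. The submitters' processing notes name CASAVA 1.8, Seurat, Cell Ranger and the build mm10. No deposited barcode had under 500 UMIs. Gene positions and promoter windows were GRCm38 (GENCODE M21 and RefSeq).

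Barcodes below 1000 UMIs or 500 genes, or above 20% mitochondrial UMIs, were left out. Scrublet in scanpy 1.11.5 scored doublets; because its automatic threshold marked 2 of 5115 intervention cells, cells were instead removed from the top of the score at 0.8% per 1000 cells, 171, 184, 318 and 209 cells. Total UMIs were 166034254, 125498999, 120934779 and 157952234 in control, early, late and intervention. Free RNA was estimated from the insulin share of non-beta classes and the glucagon share of beta-like cells.

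UMIs were summed per class and library. Genes entered a comparison where the higher library reached 50 CPM and the sum over both reached 50 UMIs, in classes of at least 50 cells, and were counted from 2-fold. Ratios carry exact conditional binomial intervals, levels exact Poisson intervals and shares Clopper-Pearson intervals, all at 95%. The interval code was tested on simulated data. TMM factors came from edgeR 4.0.16. The alternatives were 2 other denominators, no filter on low values, a stricter cell filter, higher hormone thresholds, no doublet removal, a mean over cells and subtraction of free RNA. Lymphatic and high endothelial cells were set apart after seeing the data.

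All 8 genes are named in all classes. Of each of the 6 lists, the 2 genes with the highest and the 2 with the lowest ratio of late db/db to control in beta-like cells are named, as are the 5 genes most like Txnip and Arrdc4; other genes of the lists are named where a count turns on them. Of the genes this rule names, 2 are not reported here. The genes and lists were chosen with earlier results of these data known. Other cell classes were not analysed here.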

Additional observations from a re-analysis of the deposited data

Results flagged for a closer look

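Txnip in late db/db against control went in opposite directions in 2 pairs of cell classes. The log2 ratio was 0.83 in beta-like cells and -0.53 in endothelial-like cells, a difference of 1.36. It was 0.53 in delta-like cells, a difference of 1.07 from endothelial-like cells. Both classes of each pair came from the same 2 libraries, all intervals lay away from 0, and the difference itself was not tested. Without cells that held a lymphatic or high endothelial venule marker, the endothelial-like ratio was -0.13 (-0.28 to 0.02), which includes 0.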

How the results depend on the processing

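Each ratio was recomputed under 8 alternatives, and none of the 14 ratios at or past 2-fold changed direction under any of them. The denominator brought the most of these ratios under 2-fold, 5 of 14 with all UMIs and 4 with TMM factors. Arrdc4 in beta-like cells stayed past 2-fold but no longer reached 50 CPM with either denominator, so its calls against control also ended. With all UMIs, the set's count in beta-like cells went from 3 of 5 to 1 of 3 in late db/db against control. That gene was Txnip, at 1.43, while Mlxipl and Acly came under 2-fold, and Arrdc4 no longer reached 50 CPM. The intervention against late db/db went from 1 of 5 to 0 of 3, with Txnip at 0.85. The intervention against control went from 3 of 5 to 1 of 3. With TMM factors the last 2 counts were 0 of 3 and 1 of 3, and late db/db against control gave 2 of 3 (Txnip and Mlxipl). Txnip in the intervention against late db/db was then 0.996 on the log2 scale, under 2-fold. Early db/db against control gave 2 of 3 (Txnip and Mlxipl) in place of 3 of 5 with either denominator. Counts over all genes, the background for these, also moved, and so did the number that entered. For late db/db against control, 648 of 4167 became 389 of 1409 with all UMIs and 234 of 1332 with TMM factors. With no filter it was 4823 of 16690. In the same order, early db/db against control went from 924 of 4234 to 363 of 1369, 346 of 1447 and 5371 of 16637. Late against early went from 34 of 3439 to 19 of 1368, 16 of 1319 and 1928 of 16925. The intervention against late db/db went from 46 of 3435 to 23 of 1367, 15 of 1256 and 2360 of 17284. Against control it went from 490 of 4153 to 226 of 1249, 198 of 1283 and 4065 of 17058. The 50 CPM threshold was not rescaled for all UMIs and TMM factors, whose totals also hold hormone UMIs, so fewer genes reached it. A smaller count is therefore not by itself a smaller share. The stricter cell filter, higher thresholds, no doublet removal, mean over cells and subtraction of free RNA left each beta-like count of the set unchanged. With no filter Fasn joined in late and early db/db against control (4 of 8 each). In endothelial-like cells, 3 of 4 ratios past 2-fold came under it without lymphatic or high endothelial cells, and 4 of 4 in cells with an Esm1 UMI. No paired analysis was possible because each group has 1 library, and no replicate could be left out. With 1 library per group, no value separates the group from the library, the mice or the day. Fasn, Acaca and Pklr were too low to enter in beta-like cells, and delta- and endothelial-like values of Arrdc4 rest on under 120 UMIs a library.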

Other observations

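Thrsp and Rgs16, named after their values were seen, are 2 further genes of the carbohydrate response list that differed between libraries in endothelial-like cells. Thrsp, which encodes a nuclear protein that promotes lipid synthesis, held 232 CPM in control, 593 CPM in early db/db, 199 CPM in late db/db and 618 CPM in the intervention, the same order of libraries as Txnip. Without cells that held a lymphatic or high endothelial venule marker it was 242 CPM, 633 CPM, 369 CPM and 630 CPM, so that late db/db was then above control. Rgs16, a regulator of G protein signalling, held 53.6 CPM in late db/db endothelial-like cells and 3.03 CPM in control, and all 57 of its late UMIs were in the marked cells. In beta-like cells Rgs16 was 154 CPM in the intervention and 54.3 CPM in control. G6pc2 in alpha-like cells was 55.8 CPM in the intervention and 12.2 CPM in late db/db, on 189 and 26 UMIs; the estimated free RNA share of those cells was 5.89% and 1.61%, and its part in the difference was not tested.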
